A study of Mus musculus with 12 samples.

Results

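The 9 genes Tbx21, Eomes, Prdm1, Zeb2, Gata3, Rora, Irf4, Batf and Hlx encode transcription factors that direct effector and helper differentiation of T cells, and they were followed here through alloactivation in cells with and without TCF-1. They were taken as a list of symbols, and the values of all annotated transcripts of each gene were summed, so that they are 9 of the 35907 genes in the files. All 9 passed the low-count filter in every comparison. The libraries fell into 4 groups of 3 biological replicates, which the labels number without naming the mice. TCF-1 cKO Post-Tx and WT Post-Tx libraries came from donor T cells recovered from the spleen of lethally irradiated female BALB/c recipients 7 days after transplant, and TCF-1 cKO Pre-Tx and WT Pre-Tx libraries from spleen T cells of the donor strains before transplant. The TCF-1 cKO carries floxed Tcf7 alleles and CD4cre on the C57BL/6 background (the labels write TCF-7 cKO), so the gene is deleted from the double-positive thymocyte stage on, in the CD4 and the CD8 lineage alike. WT mice were C57BL/6, mice were 8 to 12 weeks old, and recipients were given CD3 T cells of the donors. In the transplants that the paper describes, recipients also received T cell-depleted bone marrow of WT C57BL/6 mice. The labels name CD4 T cells for all 12 libraries, whereas the design text also names CD8 T cells.

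T-bet, the product of Tbx21, drives the type 1 helper and cytotoxic programs together with its T-box relative Eomes, and Hlx acts beside T-bet on the interferon gamma gene. Blimp-1, from Prdm1, and Zeb2 accompany terminal effector differentiation, and Blimp-1 and BCL6 repress each other. GATA3 is the master factor of type 2 helper cells, RORalpha, from Rora, serves type 2 innate lymphoid and type 17 helper cells, and BATF with IRF4 binds composite AP-1 and IRF sites opened after T cell receptor signaling. TCF-1 is best known for maintaining naive and stem-like T cells and for favoring GATA3 and BCL6 in helper cells.

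In the GENCODE M21 annotation of GRCm38, Tbx21 lies at chr11:97098071-97115331, Eomes at chr9:118478212-118486132, Hlx at chr1:184727140-184732619 and Prdm1 at chr10:44437177-44528501. Zeb2 lies at chr2:44983632-45117395 and Gata3 at chr2:9857078-9890034, Rora at chr9:68653786-69388246, Irf4 at chr13:30749226-30766976 and Batf at chr12:85686669-85709087. All are protein-coding genes and their values are sums over all annotated exons.

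The promoters of the 4 genes whose change with transplant differed between genotypes (Irf4, Batf, Rora and Prdm1) are shown as the 250 bases before the RefSeq start in GRCm38.p6, 5′ to 3′ on the strand of the gene, with matches to the searched motifs in capitals. The windows lie at chr13:30748983-30749232 (plus strand) for Irf4, chr12:85686470-85686719 (plus strand) for Batf, chr9:68653536-68653785 (plus strand) for Rora and chr10:44458749-44458998 (minus strand) for Prdm1.
Irf4: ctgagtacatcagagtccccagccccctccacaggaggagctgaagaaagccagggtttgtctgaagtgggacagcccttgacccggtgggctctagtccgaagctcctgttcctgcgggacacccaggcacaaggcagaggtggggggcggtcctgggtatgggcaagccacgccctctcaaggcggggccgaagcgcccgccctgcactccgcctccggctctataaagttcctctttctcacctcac
Batf: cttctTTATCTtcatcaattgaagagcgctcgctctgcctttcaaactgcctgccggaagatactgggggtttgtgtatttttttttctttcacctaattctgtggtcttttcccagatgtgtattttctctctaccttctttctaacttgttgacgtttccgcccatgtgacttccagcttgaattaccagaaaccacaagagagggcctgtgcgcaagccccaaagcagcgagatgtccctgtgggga
Rora: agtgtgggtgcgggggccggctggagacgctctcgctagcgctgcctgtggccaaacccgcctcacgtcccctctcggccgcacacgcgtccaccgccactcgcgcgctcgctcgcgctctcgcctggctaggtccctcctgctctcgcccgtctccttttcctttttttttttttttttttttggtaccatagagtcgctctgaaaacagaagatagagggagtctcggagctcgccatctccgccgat
Prdm1: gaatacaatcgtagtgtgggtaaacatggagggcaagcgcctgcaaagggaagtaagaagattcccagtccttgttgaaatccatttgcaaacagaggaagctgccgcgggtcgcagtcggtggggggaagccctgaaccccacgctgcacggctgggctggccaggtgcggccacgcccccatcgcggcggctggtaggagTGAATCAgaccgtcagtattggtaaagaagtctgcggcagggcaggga
The Prdm1 window held the AP-1 motif TGANTCA, 48 bases before the start, and the Batf window the GATA motif AGATAA on its minus strand, 245 bases before the start. All 9 genes had a RefSeq window, and Zeb2 had 4 by its alternative starts, which makes 12 windows searched on both strands. The TCF/LEF motif CTTTGA was in 0 of the 12 and in 13.8% of 32851 windows of the same length over all genes. TGANTCA was in 2 of the 12 (Prdm1 and 1 Zeb2 window) and in 6.75% of all windows, and the IRF motif, GAAA followed by GAAA after a gap of 2 bases, in 1 (Eomes) and in 2.98%. AGATAA was in 1 of the 12 and in 9.99% of all windows, and the T-box motif AGGTGT in 0 and in 11.8%. The E-box CANNTG, not capitalized, was in 3 of the 12 (Prdm1, Tbx21 and Batf) and in 66.2% of all windows. A motif match is a string of letters and not evidence of binding.

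The libraries held 17103415 to 49486745 estimated counts. Tcf7, the deleted gene, had 91.4, 106 and 113 normalized CPM (counts scaled to library size) in TCF-1 cKO Post-Tx libraries, against 158, 155 and 182 in WT Post-Tx libraries. Before transplant it had 188, 148 and 193 CPM in TCF-1 cKO libraries and 206, 201 and 124 CPM in WT libraries. These sums take in the reads outside the floxed exon, so they do not check the genotype labels. The cell types the libraries held differed by stage and by genotype. The summed level of 12 T cell genes averaged 6080 ± 459 CPM in TCF-1 cKO Post-Tx libraries, against 11458 ± 2112 CPM in WT Post-Tx libraries (SD, n = 3 each). Pre-Tx it averaged 2496 ± 298 CPM in TCF-1 cKO libraries, against 4371 ± 708 CPM in WT libraries. Post-Tx, Cd4 ran from 539 to 685 CPM in TCF-1 cKO libraries, against 995 to 1333 CPM in WT libraries, and Cd8a from 7.93 to 12.9 CPM in TCF-1 cKO libraries, against 1.19 to 6.35 CPM in WT libraries. Pre-Tx, Cd8a ran from 77.7 to 96.3 CPM in TCF-1 cKO libraries, against 144 to 191 CPM in WT libraries, and was as high as Cd4, which ran from 71.2 to 102 CPM in TCF-1 cKO libraries, against 75.9 to 173 CPM in WT libraries. The sum of 14 B cell genes was 11181 to 12253 CPM in TCF-1 cKO Pre-Tx libraries, against 8637 to 10732 CPM in WT Pre-Tx libraries, above the T cell sum in every Pre-Tx library, so these held more than the labelled CD4 T cells. Post-Tx, the B cell sum was 81.4 to 137 CPM in TCF-1 cKO libraries, against 80.1 to 122 CPM in WT libraries. The sum of 7 erythroid genes was 4916 to 15965 CPM in TCF-1 cKO Pre-Tx libraries, against 11408 to 28876 CPM in WT Pre-Tx libraries. Post-Tx, the erythroid sum was 1275 to 4821 CPM in TCF-1 cKO libraries, against 813 to 1346 CPM in WT libraries, with overlap at both stages. Olfactory receptor genes (1407 genes), which T cells do not use, had a sum of 5866 ± 2886 CPM in TCF-1 cKO Post-Tx libraries, against 1893 ± 844 CPM in WT Post-Tx libraries, and of 1400 ± 331 CPM in TCF-1 cKO Pre-Tx libraries, against 5092 ± 2207 CPM in WT Pre-Tx libraries (SD, n = 3 each). The labels call the samples biological replicates but do not say which mice each came from. The p-values measure the spread between these samples, whether or not each is a separate mouse. In such mixtures, fewer cells of a type and less RNA per cell cannot be told apart.

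Batf was the most abundant of the 9 in every group when levels were compared per length, as TPM (transcript counts scaled for length and depth), and Tbx21 came after it. Post-Tx, Batf averaged 364 ± 10.6 TPM in TCF-1 cKO and 558 ± 73.8 TPM in WT libraries, and Tbx21 153 ± 25.2 TPM in TCF-1 cKO and 173 ± 22.7 TPM in WT libraries (SD, n = 3 each). Gata3 averaged 118 ± 13.1 TPM in TCF-1 cKO and 133 ± 7.43 TPM in WT libraries, and Rora 19.0 ± 1.37 TPM in TCF-1 cKO and 20.8 ± 1.38 TPM in WT libraries. Within each Post-Tx group the ranges of these 4 genes did not overlap, so their order was the same in every library. Prdm1, Zeb2, Irf4 and Eomes lay between 3.32 and 16.6 TPM in single Post-Tx libraries, and Hlx was last at 0.42 to 2.63 TPM in TCF-1 cKO and 1.23 to 1.85 TPM in WT. Pre-Tx, Batf averaged 70.3 ± 11.7 TPM in TCF-1 cKO and 49.8 ± 2.04 TPM in WT libraries, and Tbx21 32.5 ± 4.69 TPM in TCF-1 cKO and 26.7 ± 4.27 TPM in WT libraries. Irf4 came after Tbx21 in TCF-1 cKO Pre-Tx libraries, at 23.0 ± 4.70 TPM and overlapping it, and stood lower in WT Pre-Tx libraries, at 7.42 ± 3.25 TPM and overlapping Zeb2, Gata3 and Eomes. Rora was the lowest of all in WT Pre-Tx libraries, at 0.80 ± 0.21 TPM.

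**Figure D1:**
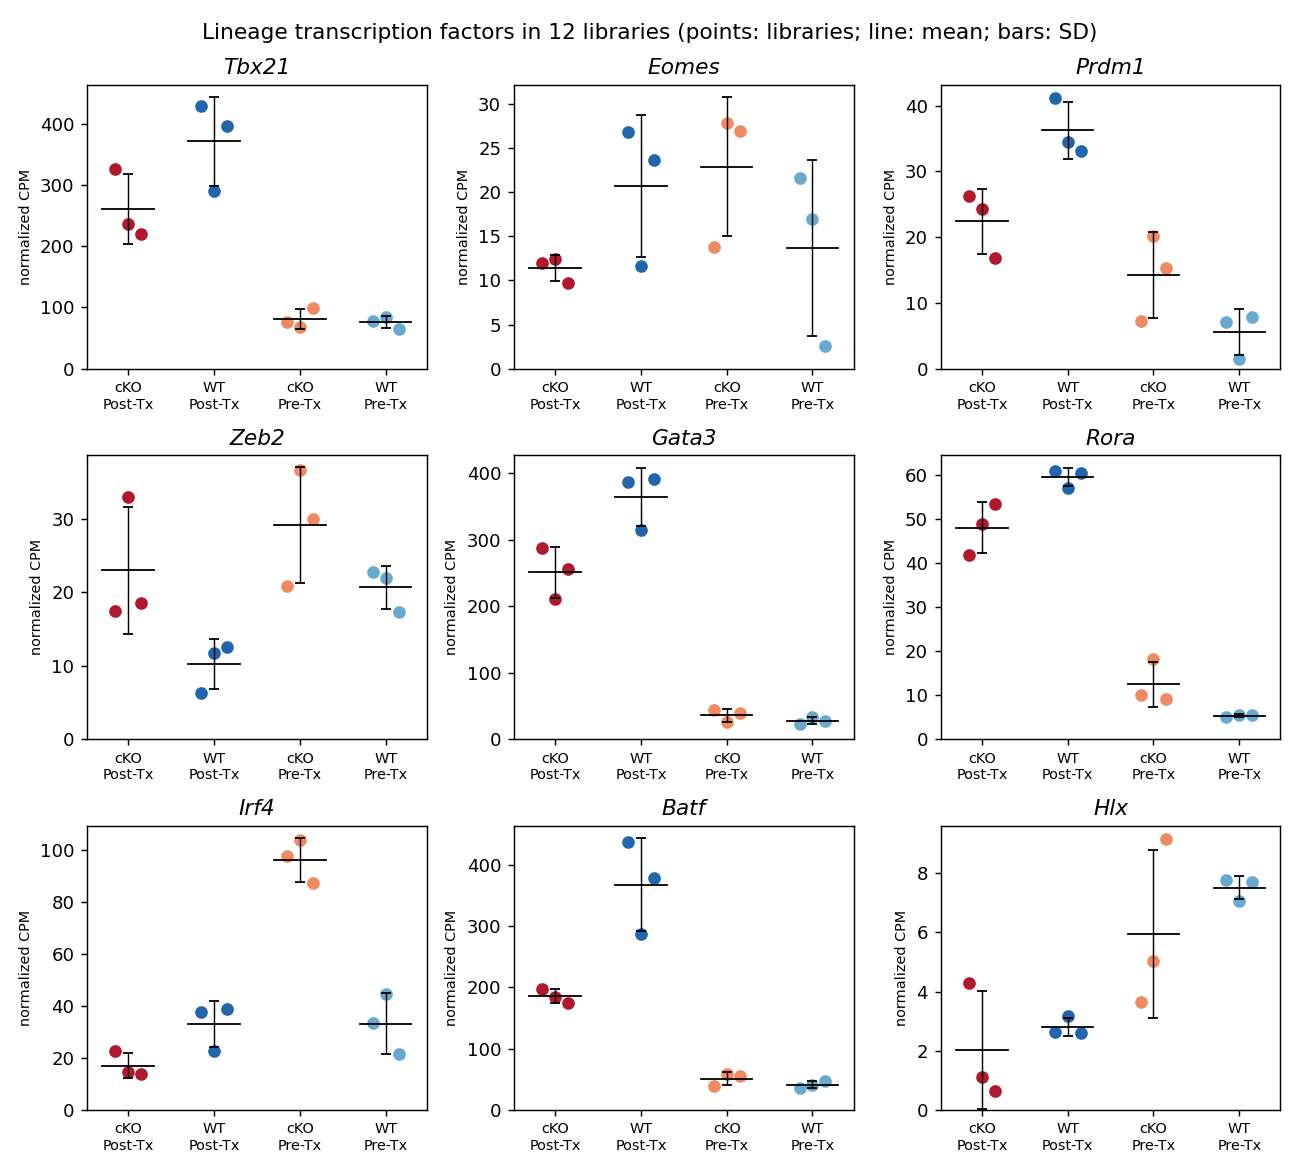
Normalized CPM (y axes, linear, from 0) of the 9 lineage factors in the 12 libraries, by group (x axes); points are libraries, lines are group means and bars are SD (n = 3). Gata3, Batf, Tbx21 and Rora stood higher in Post-Tx than in Pre-Tx libraries of both genotypes, and Irf4 was highest in TCF-1 cKO Pre-Tx libraries, at 87.4 to 104 CPM.

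Transplant was compared within each genotype to show how the lineage factors responded to 7 days of alloactivation, in a single edgeR quasi-likelihood fit of all 12 libraries. Calls needed an adjusted p (Benjamini-Hochberg) under 0.05 together with a change of 1 or more on the log2 scale. In TCF-1 cKO cells Gata3, Batf, Rora and Tbx21 rose and Irf4 fell, 5 of the 9, where 23.8% of 21434 genes were called. In WT cells Gata3, Rora, Batf, Prdm1 and Tbx21 rose, again 5 of the 9, where 19.5% of genes were called. Calls were higher for 13.8% and lower for 9.99% of genes in TCF-1 cKO cells, and for 9.83% and 9.62% in WT cells. Post-Tx and Pre-Tx libraries did not overlap for 4 higher and 2 lower members in TCF-1 cKO cells, where 50.2% of all genes did not overlap (30.1% higher, 20.1% lower), and for 5 higher and 2 lower in WT cells, where 38.9% did not (18.0% higher, 20.9% lower). The median log2 fold change of the 9 was 0.65 in TCF-1 cKO cells, beside 0.36 over all genes tested, and 2.29 in WT cells, beside -0.41 over all genes tested. Since the Pre-Tx libraries held the B cell, CD8 and other transcripts given above, the part of cell composition in these changes was not tested.

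Gata3 had the largest rise of the 9 in each genotype. It had 287, 210 and 255 CPM in TCF-1 cKO Post-Tx libraries, against 43.4, 25.2 and 40.1 CPM in TCF-1 cKO Pre-Tx libraries, a 6.94-fold rise (log2 2.79, SE 0.26, edgeR adjusted p = 8.0e-07). It had 387, 314 and 391 CPM in WT Post-Tx libraries, against 22.7, 33.5 and 27.2 CPM in WT Pre-Tx libraries, a 13.1-fold rise (log2 3.71, SE 0.27, edgeR adjusted p = 4.7e-08). Every Post-Tx library stood far above every Pre-Tx library of its genotype. Reads of Gata3 may include some from 2 genes that overlap it, 4930412O13Rik on the opposite strand and 9230102O04Rik on the same strand.

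Batf, the AP-1 partner of IRF4, had 198, 185 and 175 CPM in TCF-1 cKO Post-Tx libraries, against 38.7, 58.6 and 55.7 CPM in TCF-1 cKO Pre-Tx libraries (log2 1.87, SE 0.24, edgeR adjusted p = 2.8e-05). It had 437, 288 and 379 CPM in WT Post-Tx libraries, against 35.2, 41.2 and 46.4 CPM in WT Pre-Tx libraries (log2 3.17, SE 0.25, edgeR adjusted p = 1.2e-07). Neither pair of groups overlapped.

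Rora had 41.9, 48.9 and 53.4 CPM in TCF-1 cKO Post-Tx libraries, against 9.996, 18.3 and 9.15 CPM in TCF-1 cKO Pre-Tx libraries (log2 1.95, SE 0.32, edgeR adjusted p = 0.00035). In WT Post-Tx libraries it had 60.9, 57.1 and 60.5 CPM, against 4.96, 5.50 and 5.60 CPM in WT Pre-Tx libraries, an 11.1-fold rise (log2 3.47, SE 0.34, edgeR adjusted p = 1.4e-06). The groups were apart in both genotypes, and the WT values were close to each other within each stage.

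Tbx21 had 326, 237 and 220 CPM in TCF-1 cKO Post-Tx libraries, against 76.2, 67.5 and 99.2 CPM in TCF-1 cKO Pre-Tx libraries (log2 1.69, SE 0.24, edgeR adjusted p = 9.8e-05). In WT Post-Tx libraries it had 428, 289 and 396 CPM, against 77.3, 84.6 and 65.6 CPM in WT Pre-Tx libraries (log2 2.29, SE 0.25, edgeR adjusted p = 4.1e-06). Both rises were free of overlap.

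Fewer of these rises were called when each library was scaled to the sum of its own T cell genes. Under that scaling the median log2 fold change of all genes moved to -0.93 in TCF-1 cKO and -1.78 in WT cells. Gata3 was still called in both genotypes (log2 1.496 in TCF-1 cKO, 2.34 in WT), as were Rora (2.10) and Batf (1.76) in WT. Tbx21 was then called in neither (0.41 in TCF-1 cKO, 0.89 in WT), nor were Rora (0.64) and Batf (0.58) in TCF-1 cKO or Prdm1 (1.25) in WT. Under that scaling Irf4 (log2 -3.81 in TCF-1 cKO, -1.39 in WT), Zeb2 (-1.60 in TCF-1 cKO, -2.36 in WT) and Hlx (-2.86 in TCF-1 cKO, -2.79 in WT) were called lower in both genotypes, and Eomes (-2.28) in TCF-1 cKO.

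Irf4 and Prdm1 were each called in a single genotype, and the interaction test of that difference follows further on. Irf4 had 22.7, 14.8 and 13.7 CPM in TCF-1 cKO Post-Tx libraries, against 97.9, 104 and 87.4 CPM in TCF-1 cKO Pre-Tx libraries, and fell by 2.50 on the log2 scale (SE 0.34, edgeR adjusted p = 5.2e-05). In WT Post-Tx libraries it had 37.9, 22.8 and 38.8 CPM, against 33.5, 44.8 and 21.4 CPM in WT Pre-Tx libraries, with overlapping groups and a log2 fold change near 0 (SE 0.32, edgeR adjusted p = 0.99) that took either sign among the alternatives. IRF4 is also abundant in B lineage cells, and the 14 B cell genes, all called lower Post-Tx in both genotypes, had a median log2 fold change of -6.69 in TCF-1 cKO and -6.64 in WT cells. Their part in the Irf4 values was not tested. Prdm1 had 26.2, 24.2 and 16.8 CPM in TCF-1 cKO Post-Tx libraries, against 7.33, 20.2 and 15.3 CPM in TCF-1 cKO Pre-Tx libraries, which overlapped (log2 0.65, SE 0.50, edgeR adjusted p = 0.32). In WT Post-Tx libraries it had 41.2, 34.5 and 33.1 CPM, against 7.11, 1.52 and 7.94 CPM in WT Pre-Tx libraries, a 6.56-fold rise without overlap (log2 2.71, SE 0.53, edgeR adjusted p = 0.0014).

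The other 3 genes, Eomes, Zeb2 and Hlx, were not called in either genotype. Eomes had 11.9, 12.4 and 9.67 CPM in TCF-1 cKO Post-Tx libraries, against 13.8, 27.8 and 27.0 CPM in TCF-1 cKO Pre-Tx libraries (log2 -1.01, SE 0.57), the Post-Tx values all lying lower. It had 26.8, 11.6 and 23.6 CPM in WT Post-Tx libraries, against 21.6, 17.0 and 2.52 CPM in WT Pre-Tx libraries, which overlapped (log2 0.59, SE 0.57). Zeb2 had 17.5, 33.0 and 18.6 CPM in TCF-1 cKO Post-Tx libraries, against 20.9, 36.7 and 30.0 CPM in TCF-1 cKO Pre-Tx libraries, with overlap (log2 -0.34, SE 0.39). It had 6.29, 11.7 and 12.6 CPM in WT Post-Tx libraries, against 22.8, 21.9 and 17.4 CPM in WT Pre-Tx libraries, lower without overlap (log2 -1.02, SE 0.39, edgeR adjusted p = 0.070). Hlx, a homeobox gene, had the lowest range of counts over all libraries, 15 to 185, though it stood above Rora in every WT Pre-Tx library. It had 4.29, 1.12 and 0.62 CPM in TCF-1 cKO Post-Tx libraries, against 3.66, 5.04 and 9.15 CPM in TCF-1 cKO Pre-Tx libraries, with overlap (log2 -1.57, SE 0.69). It had 2.62, 3.16 and 2.61 CPM in WT Post-Tx libraries, against 7.78, 7.08 and 7.69 CPM in WT Pre-Tx libraries, lower without overlap (log2 -1.43, SE 0.68, edgeR adjusted p = 0.14). In TCF-1 cKO cells Hlx was called lower without TCF-1 cKO Post-Tx replicate 1 (log2 -2.77), by DESeq2 (-1.62) and by voom (-1.96), and Eomes without WT Pre-Tx replicate 3 (-1.11). Eomes in WT cells moved to 1.24 without WT Pre-Tx replicate 1 and to 0.24 without WT Pre-Tx replicate 3.

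**Figure D2:**
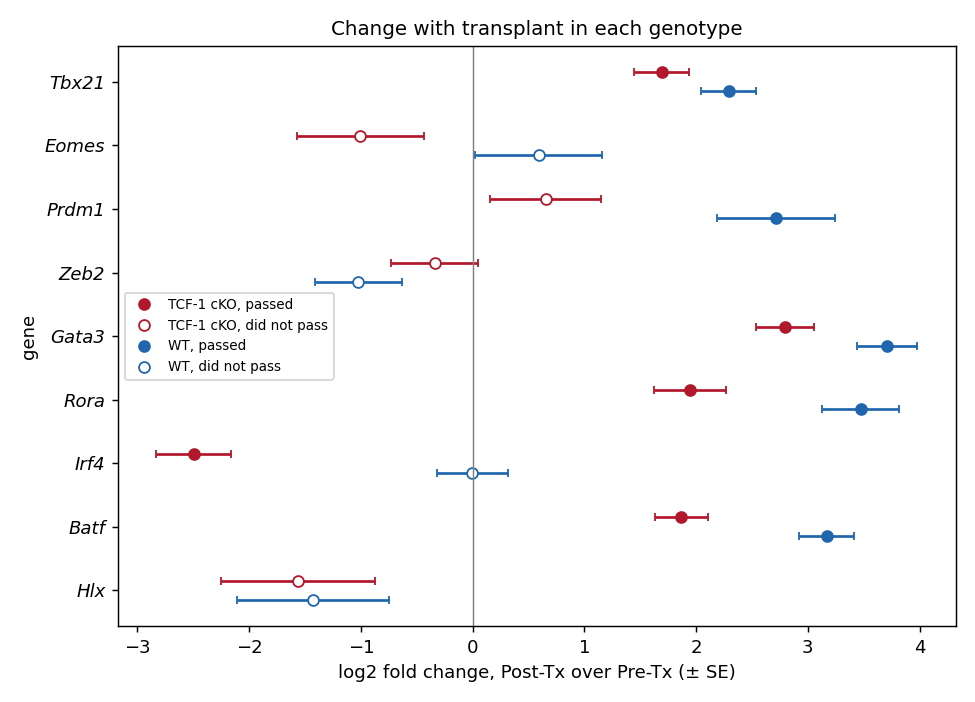
Log2 fold change of each lineage factor, Post-Tx over Pre-Tx (x axis, bars are SE), in TCF-1 cKO and WT cells; filled points passed the test. Gata3, Batf, Rora and Tbx21 passed in both genotypes, Prdm1 at 2.71 in WT alone and Irf4 at -2.50 in TCF-1 cKO alone.

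The effect of TCF-1 loss at day 7 was tested on the 6 Post-Tx libraries, with calls at an edgeR adjusted p under 0.05. Of the 9 lineage factors 0 were called higher and 1, Batf, was called lower, where 6.65% of 19287 genes were called (3.52% higher, 3.13% lower). The median log2 fold change of the 9 was -0.53, beside 0.09 over all genes. Batf had 198, 185 and 175 CPM in TCF-1 cKO Post-Tx libraries, against 437, 288 and 379 CPM in WT Post-Tx libraries, and fell by 0.98 on the log2 scale (SE 0.23, edgeR adjusted p = 0.026). Every TCF-1 cKO value lay below every WT value. The call was lost in 9 of 16 alternatives: without TCF-1 cKO replicate 2 or 3 or WT replicate 1 or 3, with upper-quartile scaling, with T cell gene scaling (log2 -0.07), on TPM, in the 12-library fit and with protein-coding transcripts alone.

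Of the other 8, 4 stood lower in every TCF-1 cKO Post-Tx library than in any WT Post-Tx library without passing the test. Gata3 had 287, 210 and 255 CPM in TCF-1 cKO, against 387, 314 and 391 CPM in WT libraries (log2 -0.53, SE 0.22, edgeR adjusted p = 0.12). Irf4 had 22.7, 14.8 and 13.7 CPM in TCF-1 cKO, against 37.9, 22.8 and 38.8 CPM in WT libraries (log2 -0.94, SE 0.33, edgeR adjusted p = 0.077), its highest TCF-1 cKO library lying just under the lowest WT library. Prdm1 had 26.2, 24.2 and 16.8 CPM in TCF-1 cKO, against 41.2, 34.5 and 33.1 CPM in WT libraries (log2 -0.70, SE 0.30, edgeR adjusted p = 0.12). Rora had 41.9, 48.9 and 53.4 CPM in TCF-1 cKO, against 60.9, 57.1 and 60.5 CPM in WT libraries (log2 -0.30, SE 0.24, edgeR adjusted p = 0.38). With Batf, then, 5 of the 9 were lower without overlap and 1, Zeb2, was higher, where 39.7% of all genes tested did not overlap (16.9% lower, 22.8% higher).

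Zeb2, the zinc finger factor that acts downstream of T-bet in terminal effectors, ran the other way. It had 17.5, 33.0 and 18.6 CPM in TCF-1 cKO, against 6.29, 11.7 and 12.6 CPM in WT Post-Tx libraries, without overlap (log2 1.18, SE 0.39, edgeR adjusted p = 0.067). It was called in 4 of 16 alternatives. Olfactory receptor genes moved in the same direction (values above). Macrophages, monocytes and dendritic cells can also express Zeb2, and the sum of 16 of their genes was 1132 to 1580 CPM in TCF-1 cKO Post-Tx libraries, against 972 to 1377 CPM in WT Post-Tx libraries, with overlap. Pre-Tx it was 3851 to 4214 CPM in TCF-1 cKO libraries, against 2977 to 4378 CPM in WT libraries, so it was lower Post-Tx in both genotypes. Of the 15 tested Post-Tx, 1, Siglech, was called higher in TCF-1 cKO and 0 lower, where 3.52% of all genes were called higher. Without overlap 4 were higher and 0 lower, where 22.8% of all genes were higher and 16.9% lower. The part of either group of genes in the Zeb2 values was not tested. Tbx21 overlapped between genotypes, at 326, 237 and 220 CPM in TCF-1 cKO and 428, 289 and 396 CPM in WT libraries (log2 -0.50, SE 0.24, edgeR adjusted p = 0.155). Eomes (log2 -0.86, SE 0.38) and Hlx (log2 -0.47, SE 0.81) overlapped as well. Hlx moved to -1.74 without TCF-1 cKO replicate 1 and to -0.071 without TCF-1 cKO replicate 3, and was called in neither case.

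All 12 T cell genes were called lower in TCF-1 cKO Post-Tx libraries, with a median log2 fold change of -0.89. Cd3e fell by 0.97 on the log2 scale and Batf by 0.98. Relative to Cd3e of the same library, on a log2 scale of TPM, Batf stood at -0.22 ± 0.10 in TCF-1 cKO and -0.23 ± 0.09 in WT Post-Tx libraries (SD, n = 3 each; exact permutation test, two-sided, p = 1.0). Tbx21, Zeb2, Gata3 and Rora were higher relative to Cd3e in every TCF-1 cKO Post-Tx library than in any WT Post-Tx library, by 0.43, 2.06, 0.42 and 0.48 on the log2 scale. The other 5 overlapped, and the share of all genes higher relative to Cd3e was not computed. With 3 libraries against 3 the exact test cannot give a p below 0.1, which each of these 4 reached (0.2 after Benjamini-Hochberg adjustment over 26 ratio tests). Scaled to T cell genes, Irf4 and Batf had a negative log2 fold change and the other 7 a positive one, and Zeb2 alone was called (2.05, against a median of 0.98 over all genes). Under that scaling 4426 of 19287 genes were called higher and 23 lower. The balance of Tbx21 to Gata3 overlapped between genotypes, at a log2 ratio of 0.37 ± 0.23 in TCF-1 cKO and 0.37 ± 0.11 in WT Post-Tx libraries.

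Before transplant the same test on the 6 Pre-Tx libraries called 1 of the 9, Irf4, as higher in TCF-1 cKO, where 14.2% of 17021 genes were called (8.52% higher, 5.65% lower). Irf4 had 97.9, 104 and 87.4 CPM in TCF-1 cKO Pre-Tx libraries, against 33.5, 44.8 and 21.4 CPM in WT Pre-Tx libraries, 2.86-fold higher (log2 1.52, SE 0.29, edgeR adjusted p = 0.013). Every TCF-1 cKO library stood well above the highest WT library. The call held in 15 of 16 alternatives and was lost without WT replicate 1 (log2 1.498, edgeR adjusted p = 0.075). Of the 14 B cell genes, 8 were called higher in TCF-1 cKO Pre-Tx libraries, with a median log2 fold change of 0.83, while plasma cell genes, 0 of 6 called, had a median of -0.45. The part of B cells in the Irf4 difference was not tested.

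The other 8 did not pass before transplant. Rora had 9.996, 18.3 and 9.15 CPM in TCF-1 cKO, against 4.96, 5.50 and 5.60 CPM in WT Pre-Tx libraries, without overlap (log2 1.18, SE 0.53, edgeR adjusted p = 0.14). Prdm1 had 7.33, 20.2 and 15.3 CPM in TCF-1 cKO, against 7.11, 1.52 and 7.94 CPM in WT Pre-Tx libraries, with overlap (log2 1.29, SE 0.67, edgeR adjusted p = 0.19). Together, 2 of the 9, Irf4 and Rora, were higher and 0 lower without overlap, where 41.2% of all genes did not overlap (21.4% higher, 19.8% lower). Tbx21 stood at 76.2, 67.5 and 99.2 CPM in TCF-1 cKO and 77.3, 84.6 and 65.6 CPM in WT Pre-Tx libraries (log2 0.04, SE 0.24), which overlapped, and its small difference took either sign among the alternatives. Log2 fold changes were 0.73 (SE 0.61) for Eomes, 0.46 (SE 0.35) for Zeb2, 0.33 (SE 0.34) for Gata3, 0.26 (SE 0.29) for Batf and -0.41 (SE 0.57) for Hlx, and those of Gata3 and Batf turned negative with upper-quartile scaling and that of Hlx positive with T cell gene scaling. Natural killer genes, which cells with high T-bet and Eomes express, had a sum of 564 ± 34.3 CPM in TCF-1 cKO Pre-Tx libraries, against 205 ± 55.8 CPM in WT Pre-Tx libraries (SD, n = 3 each). Of these, 3 of 10 were called higher Pre-Tx and 0 lower, where 8.52% of all genes were called higher and 5.65% lower. Post-Tx the sum was 139 ± 38.1 CPM in TCF-1 cKO libraries, against 259 ± 99.2 CPM in WT libraries, which overlapped, so in TCF-1 cKO cells it was lower Post-Tx than Pre-Tx. Gene by gene, 9 of the 10 were called lower with transplant in TCF-1 cKO cells (median log2 -5.05). In WT cells 6 were called lower and 1, Gzma, higher (median log2 -3.41). Of all genes 9.99% were called lower in TCF-1 cKO and 9.62% in WT cells. The part of natural killer cells in the Tbx21 and Eomes values was not tested.

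Relative to Cd3e, 8 of the 9 were higher in every TCF-1 cKO Pre-Tx library than in any WT Pre-Tx library, and Hlx overlapped. The share of all genes higher relative to Cd3e was not computed. The log2 differences ran from 0.82 for Hlx and 1.26 for Zeb2 to 2.75 for Rora and 2.78 for Irf4. Cd3e itself had 149, 120 and 125 CPM in TCF-1 cKO Pre-Tx libraries, against 276, 297 and 343 CPM in WT Pre-Tx libraries (log2 -1.27, SE 0.23, edgeR adjusted p = 0.0105), and a lower Cd3e by itself raises each ratio. Scaled to T cell genes, 7 of the 9 were called higher (all but Eomes and Hlx). Under that scaling 5849 of 17021 genes were called higher and 346 lower, with a median log2 fold change of 0.73. The ratio of Irf4 to Batf, the partners at composite sites, was a log2 of -1.62 ± 0.50 in TCF-1 cKO and -2.86 ± 0.75 in WT Pre-Tx libraries, without overlap (SD, n = 3 each; exact permutation test, two-sided, p = 0.1, the smallest possible). Post-Tx it was -6.23 ± 0.27 in TCF-1 cKO and -6.16 ± 0.24 in WT libraries, overlapping.

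**Figure D3:**
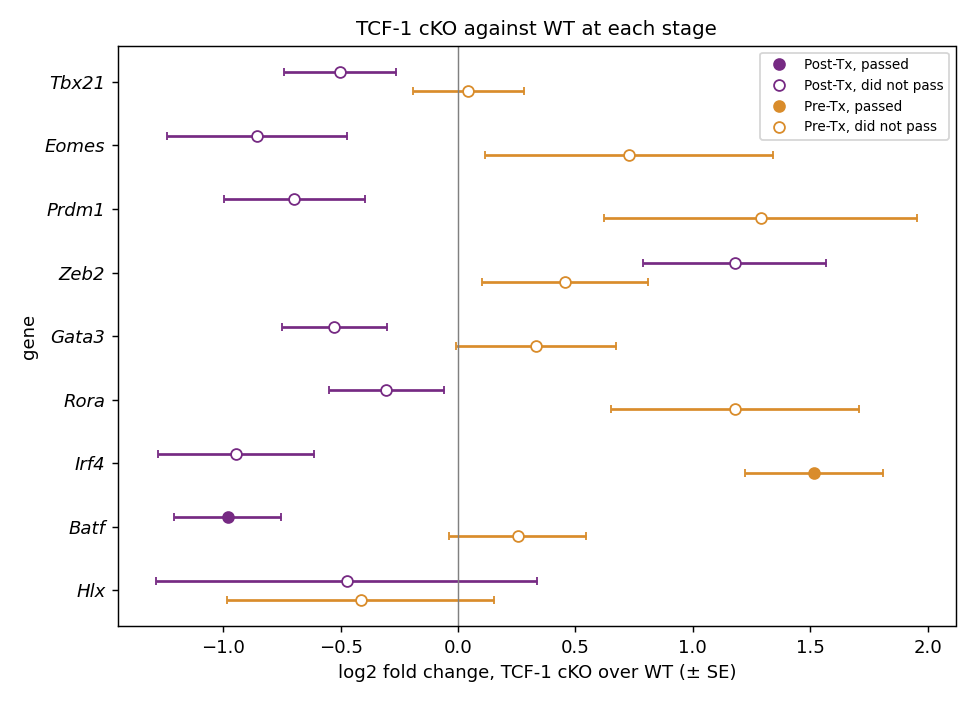
Log2 fold change of each lineage factor, TCF-1 cKO over WT (x axis, bars are SE), in Post-Tx and in Pre-Tx libraries; filled points passed the test. Batf passed Post-Tx (-0.98) and Irf4 passed Pre-Tx (1.52), and Zeb2 was the highest Post-Tx (1.18).

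**Figure D4:**
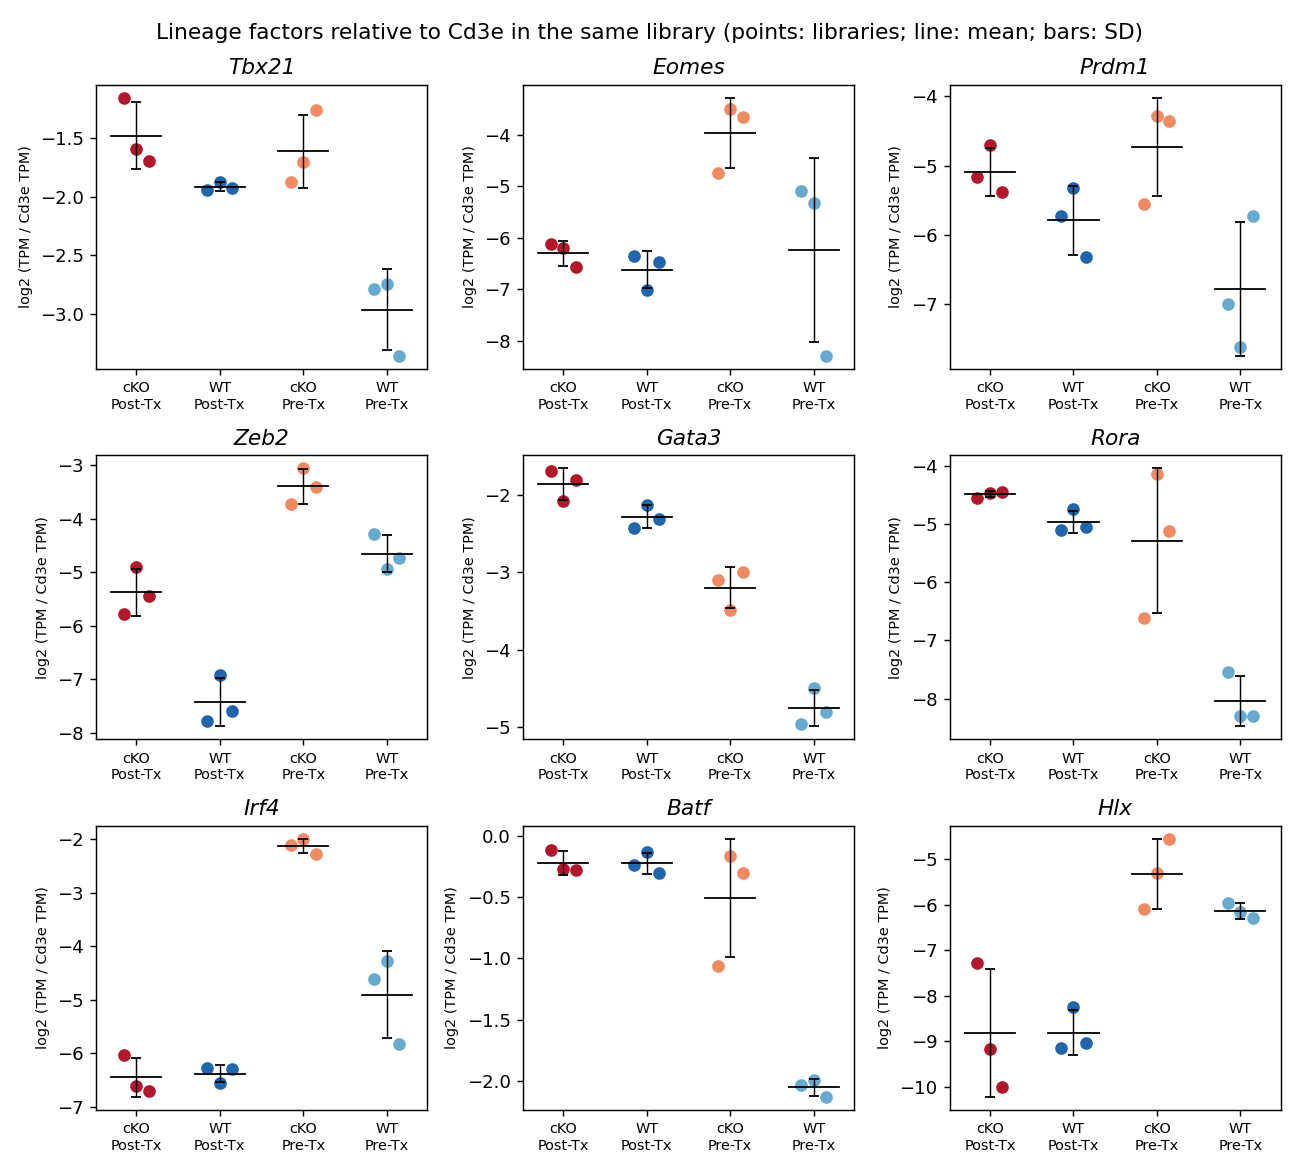
Log2 ratio of the TPM of each lineage factor to the TPM of Cd3e in the same library (y axes), by group (x axes); points are libraries, lines are means and bars are SD (n = 3). Batf overlapped between genotypes Post-Tx (mean -0.22 in TCF-1 cKO, -0.23 in WT), whereas 8 of the 9 panels show TCF-1 cKO Pre-Tx libraries above all WT Pre-Tx libraries. Cd3e itself was lower in TCF-1 cKO libraries at both stages, and the share of all genes was not computed.

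Whether the effect of transplant differed between genotypes was tested as an interaction in the 12-library fit, where a negative value means that TCF-1 cKO cells rose less, or fell more, than WT cells. Of the 9, 4 were called lower and 0 higher, where 28.6% of 21434 genes were called (11.5% lower), and the median was -1.30, beside 0.37 over all genes. Irf4 differed by -2.49 (SE 0.46, edgeR adjusted p = 0.0029), the fall in TCF-1 cKO set against a value near 0 in WT. It was called in all 21 alternatives. Batf differed by -1.30 (SE 0.33, edgeR adjusted p = 0.011) and was called in 20 of 21. Rora differed by -1.53 (SE 0.44, edgeR adjusted p = 0.020) and was called in 17 of 21. Prdm1 differed by -2.06 (SE 0.71, edgeR adjusted p = 0.039) and was called in 11 of 21, the call being lost without TCF-1 cKO Pre-Tx replicate 2 or 3, TCF-1 cKO Post-Tx replicate 2 or 3, or WT Post-Tx replicate 1 or 3, and under 4 other settings. Rora lost its call without TCF-1 cKO Pre-Tx replicate 2 and on 3 other settings. Upper-quartile scaling, which moved the median of all genes to 1.05, left Irf4 as the only call among the 9. Gata3 (-0.91, SE 0.34, edgeR adjusted p = 0.055), Eomes (-1.60, SE 0.80), Tbx21 (-0.60, SE 0.33), Zeb2 (0.68, SE 0.55) and Hlx (-0.14, SE 0.94) did not pass. The interaction uses the same libraries as the comparisons above, among them the Pre-Tx libraries, whose T cell and B cell genes differed between genotypes as given above.

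The transcripts behind the sums were of different kinds. Tbx21 has a single annotated transcript in the files, and all annotated Eomes, Irf4 and Hlx transcripts are protein-coding. Protein-coding transcripts carried 95.5% to 97.6% of Batf TPM in TCF-1 cKO Post-Tx and 97.5% to 99.0% in WT Post-Tx libraries, and 93.8% to 95.5% of Gata3 TPM in TCF-1 cKO Post-Tx and 96.3% to 97.2% in WT Post-Tx libraries. Post-Tx, most Rora TPM came from a shorter coding transcript of 2591 nucleotides, Rora-202, with 15.3 to 16.4 TPM in TCF-1 cKO Post-Tx and 18.0 to 20.8 TPM in WT Post-Tx libraries, against 0 to 4.58 TPM in TCF-1 cKO Pre-Tx and 0 to 0.31 TPM in WT Pre-Tx libraries. The longer Rora-201, of 10878 nucleotides, had 1.35 to 3.39 TPM in TCF-1 cKO Post-Tx libraries, against 0.19 to 0.87 TPM in TCF-1 cKO Pre-Tx libraries, and 1.34 to 2.21 TPM in WT Post-Tx libraries, against 0.34 to 0.35 TPM in WT Pre-Tx libraries, so both transcripts were higher Post-Tx without overlap. In WT Pre-Tx libraries Rora-201 averaged 44.8% of Rora TPM and Rora-202 25.5%.

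For Prdm1 and Zeb2 a part of the sum came from transcripts that are not annotated as protein-coding. The retained-intron transcript Prdm1-203, of 830 nucleotides, took 2.04, 8.99 and 5.61 TPM in TCF-1 cKO Post-Tx libraries, against 0.10, 2.67 and 0.39 TPM in WT Post-Tx libraries, overlapping in a single library of each group. The 3 coding Prdm1 transcripts together had 9.23, 7.58 and 4.73 TPM in TCF-1 cKO Post-Tx libraries, against 14.3, 11.3 and 7.65 TPM in WT Post-Tx libraries, which overlapped too. Zeb2 has 29 transcripts in the files, 17 of them coding. Its coding transcripts had 2.53, 3.44 and 2.93 TPM in TCF-1 cKO Post-Tx libraries, against 0.77, 1.81 and 1.91 TPM in WT Post-Tx libraries, and its other transcripts 4.90, 11.1 and 7.00 TPM in TCF-1 cKO Post-Tx libraries, against 2.70, 2.83 and 1.41 TPM in WT Post-Tx libraries. Both kinds were higher in every TCF-1 cKO library. A fit on counts of protein-coding transcripts alone, added after seeing the data, gave Zeb2 a log2 fold change of 1.13 Post-Tx (SE 0.51, edgeR adjusted p = 0.19) and Batf one of -0.72 (SE 0.17, edgeR adjusted p = 0.067). In that fit 20 of 18142 genes were called Post-Tx, in place of 1283, and 0 of the 9. Short fragments assigned between overlapping transcripts make such shares less certain than gene sums.

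**Figure D5:**
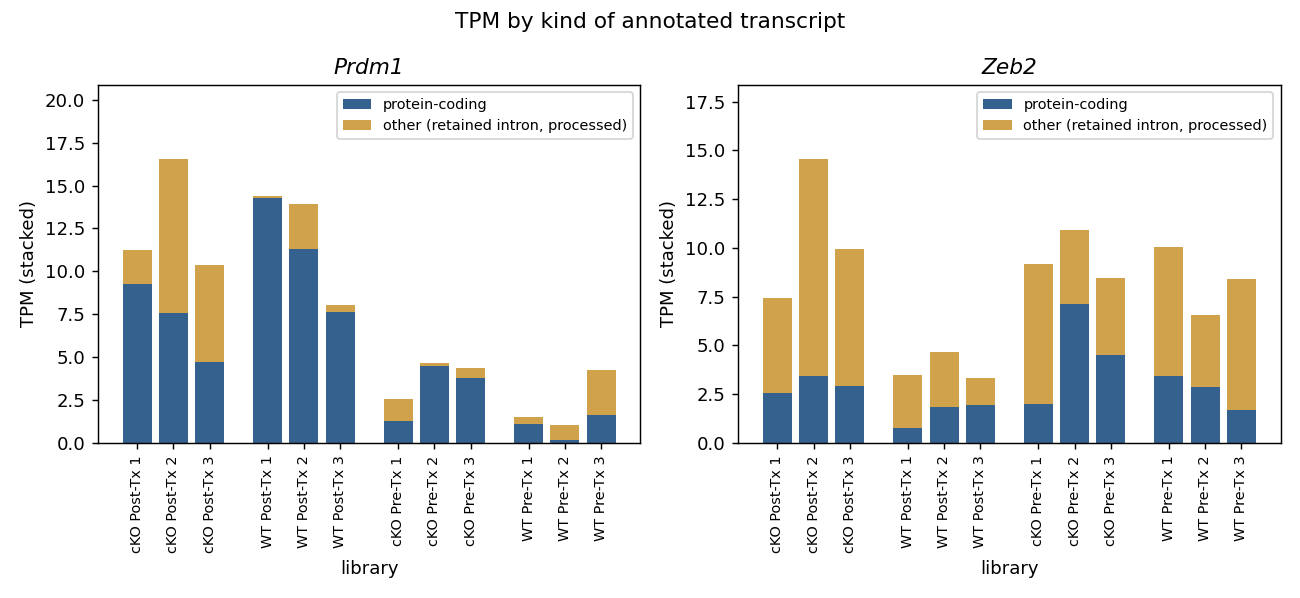
TPM of Prdm1 and Zeb2 (y axes, stacked from 0) in each library (x axes), split into protein-coding and other annotated transcripts. Other transcripts of Prdm1 reached 8.99 TPM in TCF-1 cKO Post-Tx replicate 2. Those of Zeb2 exceeded the coding ones in every TCF-1 cKO Post-Tx and every WT Pre-Tx library, and in some libraries of the other groups.

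The lineage factors outside the 9 moved in both directions. Of 32 such genes, 10 rose and 8 fell with transplant in TCF-1 cKO cells, where 13.8% of all genes rose and 9.99% fell, and 12 rose and 5 fell in WT cells, where 9.83% rose and 9.62% fell. Bhlhe40, a factor of cytokine-producing helper cells, was called higher in both genotypes (log2 2.71 in TCF-1 cKO, 3.96 in WT), as was Id2, an inhibitor of E proteins (2.30 in TCF-1 cKO, 3.61 in WT). Id3, its relative in naive and memory cells, was called lower in both (-3.66 in TCF-1 cKO, -2.16 in WT). At day 7, 0 of the 32 were called higher and 5 lower in TCF-1 cKO cells, where 3.52% of all genes were called higher and 3.13% lower. The 5 were Tox2 (log2 -2.37, SE 0.35), Id3 (-1.82, SE 0.31), Zbtb32 (-1.60, SE 0.31), the Ikaros family member Ikzf3 (-1.23, SE 0.25) and Tox (-1.19, SE 0.25). Their median was -0.51, close to that of the 9. Before transplant 5 were called higher, Ahr (2.50), Stat4 (1.45), Bcl6 (1.07), Ikzf3 (0.89) and Bhlhe40 (0.84), and Tox2 (-3.41) was called lower, with a median of -0.13, beside -0.11 over all genes. At that stage 8.52% of all genes were called higher and 5.65% lower. In the interaction 11 of 32 were called lower, where 11.5% of all genes were.

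Of 17 genes known as targets of T-bet and Eomes, 12 were called higher and 3 lower in TCF-1 cKO cells (median log2 1.77; all genes, 13.8% higher and 9.99% lower), and 13 higher and 1 lower in WT cells (median 2.65; all genes, 9.83% higher and 9.62% lower). Ifng, encoding interferon gamma, rose by 7.08 (SE 0.62) in TCF-1 cKO and 7.07 (SE 0.64) in WT cells on the log2 scale, and Gzmb, encoding granzyme B, by 3.59 (SE 0.28) in TCF-1 cKO and 4.33 (SE 0.29) in WT cells. At day 7, 6 of the 17 were called lower in TCF-1 cKO cells and 0 higher, where 3.13% of all genes were called lower and 3.52% higher. They were the chemokine genes Ccl5 (-1.65), Ccl3 (-1.11) and Ccl4 (-1.07), the perforin gene Prf1 (-1.54), the chemokine receptor gene Cxcr3 (-0.97) and Nkg7 (-0.85), a granule gene. Ifng (0.58, SE 0.25) and Gzmb (-0.07, SE 0.22) were not called. Before transplant Cxcr6 (1.33) and Fasl (1.73) were called higher and 0 lower, where 8.52% of all genes were called higher and 5.65% lower.

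Of 12 genes associated with GATA3 and RORalpha, 10 were tested over both stages. With transplant 4 were called higher and 1 lower in TCF-1 cKO cells (all genes, 13.8% higher and 9.99% lower). In WT cells 4 were called higher and 1 lower as well (all genes, 9.83% higher and 9.62% lower). Their summed level was 242 to 359 CPM in TCF-1 cKO Post-Tx libraries, against 405 to 564 CPM in TCF-1 cKO Pre-Tx libraries, and 338 to 507 CPM in WT Post-Tx libraries, against 469 to 663 CPM in WT Pre-Tx libraries, lower without overlap in TCF-1 cKO and overlapping in WT. Il4ra, the IL4 receptor gene, was called lower in both. The IL33 receptor gene Il1rl1, Il4, and the chemokine receptor gene Ccr8 rose in both genotypes, Il1rl1 by 4.34 (SE 0.44) in TCF-1 cKO and 3.00 (SE 0.41) in WT cells, and Il4 by 6.92 (SE 0.89) in TCF-1 cKO and 3.46 (SE 0.73) in WT cells. At day 7 the edgeR test called 0 of 10 between genotypes, where 6.65% of all genes were called. Before transplant Il7r was called higher (1.21), 1 of 7 tested, where 8.52% of all genes were called higher. Of 15 genes associated with Blimp-1, IRF4 and BATF, 14 were tested. With transplant 8 rose and 4 fell in TCF-1 cKO cells and 8 rose and 2 fell in WT cells, beside the same shares of all genes. Icos, Il2ra and Havcr2 rose in both, and Ccr7, a lymph node homing receptor gene, fell in both. Their summed level was 648 to 836 CPM in TCF-1 cKO Post-Tx libraries, against 2042 to 2420 CPM in TCF-1 cKO Pre-Tx libraries, without overlap, and 1299 to 1674 CPM in WT Post-Tx libraries, against 1350 to 2330.5 CPM in WT Pre-Tx libraries, with overlap. At day 7, 5 of 14 were called lower in TCF-1 cKO cells, the inhibitory receptor genes Lag3 (-1.36) and Ctla4 (-1.24), the costimulatory gene Icos (-1.12), S1pr1 (-1.17), which guides exit from lymphoid organs, and Myc (-0.89), and 0 higher. Of all genes 3.13% were called lower and 3.52% higher. The calls on these lists at day 7 stand beside the T cell genes, all 12 of them lower.

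Genes whose pattern over the 12 libraries was most like a factor were found by the root mean square (RMS) difference of centered log2 CPM among 10743 genes with a mean of at least 5 CPM. Tbx21 was nearest to Il2rb, the IL2 and IL15 receptor chain that T-bet and Eomes are known to induce, with an RMS difference of 0.17, where its median over all genes was 1.18. Batf was nearest to S100a6 (0.21), then Il2rb (0.33), and Gata3 to Serpina3g (0.30) and Id2 (0.35). Rora was nearest to the lamin gene Lmnb1 (0.30), Irf4 to Parp1 (0.28), Zeb2 to the natural killer receptor gene Klra2 (0.28), Eomes to Cdc23 (0.36) and Hlx to Hyal2 (0.36). Among the 9 themselves, Tbx21 and Batf were each other's nearest (0.40), Gata3 and Rora were nearest to Batf (0.51 and 0.46), and Irf4 and Eomes were nearest to each other at 0.88, where the median over all genes was 1.01 for Irf4 and 0.97 for Eomes. All the points share these 12 libraries and their stage difference.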

How the data were processed

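Total RNA of sorted spleen T cells (miRNeasy kit) was amplified with SMARTseq HT, made into Nextera XT libraries and sequenced paired-end on a NovaSeq. The authors quantified transcripts with kallisto 0.46.2 and deposited estimated counts and TPM values (scaled for transcript length and depth) per transcript. The labels name mm9, and none of the sources used here gives the transcript set. Here transcripts were matched by identifier to GENCODE M21 (116428 of 117497, leaving out 0.282% to 0.386% of counts per library), summed per gene and rounded to whole numbers. Calls came from the quasi-likelihood test of edgeR 4.0.16 in R 4.3.3 with TMM scaling and filterByExpr, with p-values adjusted over all genes tested. Genotype was fitted on the 6 libraries of a stage, and transplant and the interaction on all 12. CPM values printed per library use the 12-library TMM factors. Alternatives used DESeq2 1.42.0, limma 3.58.1 (log2 of TPM plus 1), other scalings, no filter, a replicate block and each library left out. The fits were tested on simulated data. Per-sample columns left unused numbered 0, and the authors' own comparisons were not used. The genes named were the 9 members, called members of the lists and the nearest genes, and results of a few of these genes are not reported here. Members and lists were chosen with earlier results of these data known. Library amplification is not corrected by molecular identifiers. Promoter windows came from RefSeq, GRCm38.p6.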

Additional observations from a re-analysis of the deposited data

Results flagged for a closer look

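For 4 of the 9 lineage factors the change with transplant differed between TCF-1 cKO and WT cells by the interaction test of edgeR, all lower, where 28.6% of 21434 genes were called (11.5% lower). The difference, TCF-1 cKO minus WT on the log2 scale, was -2.49 for Irf4 (adjusted p = 0.0029), -2.06 for Prdm1 (adjusted p = 0.039), -1.53 for Rora (adjusted p = 0.020) and -1.30 for Batf (adjusted p = 0.011). Groups of 3 were too small for a search for single libraries far from the others.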

How the results depend on the processing

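Among the lineage factors, 747 fold changes under an alternative kept their direction and their side of the threshold, 38 passed newly, 30 no longer passed and 40 changed sign, as did 20 of 182 ratios. T cell gene scaling sets each library to the sum of its 12 T cell genes. Protein-coding transcripts alone and count ratios were chosen after seeing the data. The causes of these changes were not tested, beyond fewer samples where libraries were left out.

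Pre-Tx between genotypes, the number of lineage factors called was 7 and of genes 6195 with T cell gene scaling, in place of 1 and 2413. It was 2 and 3665 in the 12-library fit, with 4066 genes by DESeq2 and 1573 with protein-coding transcripts alone. Post-Tx, in place of 1 lineage factor and 1283 genes, the counts were 0 and 798 (upper quartile), 3 and 3785 (DESeq2), 2 and 2850 (voom), 0 and 20 (protein-coding alone, with 4533 genes at an unadjusted p under 0.05) and 0 and 137 (12-library fit). It was 0 lineage factors on TPM, and 4449 genes with T cell gene scaling and 2205 without the filter. With T cell gene scaling 8821 genes were called with transplant in TCF-1 cKO and 10248 in WT cells. In the interaction 1 lineage factor was called with upper-quartile scaling, 2 with T cell gene scaling and 2 on TPM.

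Upper-quartile scaling split the Pre-Tx calls into 636 higher and 2070 lower and the Post-Tx calls into 687 and 111, and T cell gene scaling into 5849 and 346, and 4426 and 23, in place of 1451 and 962 Pre-Tx and 679 and 604 Post-Tx. Transplant calls were 4177 higher and 1248 lower in TCF-1 cKO and 1409 and 2849 in WT cells with upper-quartile scaling, and 501 and 8320, and 328 and 9920 with T cell gene scaling, in place of 2949 and 2142, and 2107 and 2062. Interaction calls were 4865 and 720 with upper-quartile scaling, in place of 3665 and 2469.

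With each library left out in turn, lineage factors called numbered 0 to 1 Pre-Tx, 0 to 2 Post-Tx, 5 to 6 with transplant in TCF-1 cKO, 5 to 5 in WT and 3 to 5 in the interaction, and genes called 14 to 2611, 6 to 3209, 2607 to 5434, 2617 to 4805 and 3013 to 7297. The lowest counts came without WT Pre-Tx replicate 1 (14), TCF-1 cKO Post-Tx replicate 2 (6, 2607 and 3013) and WT Post-Tx replicate 3 (2617). Pre-Tx counts were also lower without TCF-1 cKO replicates 1 (517), 2 (967) and 3 (1236) and WT replicate 3 (981). Post-Tx they were 445 without TCF-1 cKO replicate 3, 64 and 325 without WT replicates 1 and 3, and 3209 without WT replicate 2. With transplant in TCF-1 cKO 2991 genes were called without TCF-1 cKO Pre-Tx replicate 3, and in the interaction 3511 without WT Post-Tx replicate 3.

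Signs changed Pre-Tx for Tbx21 (-0.31), Gata3 (-0.027) and Batf (-0.10) with upper-quartile scaling, Hlx (0.40) with T cell gene scaling and Tbx21 (-0.052) with protein-coding transcripts. Post-Tx, T cell gene scaling gave Tbx21 0.40, Eomes 0.10, Prdm1 0.20, Gata3 0.36, Rora 0.59 and Hlx 0.33, and TPM gave Prdm1 0.079. With transplant in TCF-1 cKO, Zeb2 was 0.033 (upper quartile) and 0.11 (TPM), and Prdm1 -0.63 (T cell gene scaling). In WT, Irf4 was 0.037 with DESeq2 size factors and by DESeq2, 0.038 by voom, 0.15 without the filter and on TPM and 0.063 with protein-coding transcripts, and Eomes -0.85 with T cell gene scaling. In the interaction, Tbx21 was 0.074 and Hlx 0.52 (upper quartile), and Zeb2 -0.028 (protein-coding). On counts, the log2 ratio difference was 0.44 for Prdm1 to Bcl6 Pre-Tx, and Post-Tx 0.013 for Irf4 to Batf, -0.013 for Batf to Cd3e and 0.022 for Hlx to Cd3e. With libraries left out, fold changes ran from -0.042 to 0.19 (Tbx21 Pre-Tx), -0.12 to 0.47 (Irf4 with transplant in WT) and -1.36 to 0.27 (Hlx interaction). Ratio differences Post-Tx ran from -0.033 to 0.33 (Tbx21 to Eomes), -0.070 to 0.14 (Tbx21 to Gata3), -0.23 to 0.029 (Irf4 to Batf), -0.28 to 0.061 (Irf4 to Cd3e), -0.053 to 0.049 (Batf to Cd3e) and -0.78 to 0.59 (Hlx to Cd3e), and Pre-Tx from -0.72 to 0.32 (Prdm1 to Bcl6).

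Whether the replicate numbers pair the samples was not settled. Residual correlations of same-numbered samples ran from -0.272 to 0.248 over 18 pairs. Post-Tx between genotypes they were -0.0002, 0.248 and 0.108 for replicates 1, 2 and 3, and from -0.297 to 0.190 for unlike numbers. So few pairs within a stage cannot decide the question. The fit with a replicate block called 5 lineage factors and 3257 genes Post-Tx, in place of 1 and 1283. It gave Irf4 0.021 with transplant in WT, and did not call Prdm1 in the interaction. Counts were low in single libraries for Hlx, at 15 in its lowest library, Prdm1, at 26, and Eomes, at 41.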
